A study of Saccharomyces cerevisiae with 11 samples.

Results

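The transcripts described here come from 34 genes of *Saccharomyces cerevisiae* that make or take up purine and pyrimidine nucleotides. They were listed by the pathway they serve, not by a measured value, and each of the 34 matched 1 probe set among the 5449 yeast genes tested. By role, 12 belong to de novo purine synthesis, 5 to GTP synthesis, 9 to pyrimidine synthesis, 3 to the uptake and salvage of uracil and uridine, and 5 to the synthesis of phosphoribosyl pyrophosphate (PRPP), the sugar phosphate on which every nucleotide is built. The 12 purine genes include *BAS1*, the gene of an activator of the pathway, and *MTD1*, a gene of one-carbon metabolism. Expression was measured on 11 Affymetrix yeast arrays, 5 of wild-type cells, 3 of *rna14-1* cells and 3 of *rna15-1* cells. *rna14-1* and *rna15-1* are alleles of the genes of Rna14 and Rna15, subunits of cleavage factor I (CFI). CFI is required, together with other factors, for cleavage of the 3′ end of nascent mRNA, and takes part in transcription termination. The arrays were made to ask whether the expression of DNA repair and other genes changes in these mutants.

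Every strain, including the wild-type strain W303-1B, is given as MATa with the alleles *trp1-1* and *his3-11,15*, a double mutant *leu2* allele, and *ade2-1* and *ura3-1*. The mutants carry *rna14-1* or *rna15-1* in addition. Thus 2 of the 34 genes, *ADE2* and *URA3*, carried mutant alleles in all strains, and their values are transcript levels that say nothing of the enzymes. With *ade2-1*, purine synthesis stops at the Ade2 step, and such cells live on adenine from the medium. The labels name YPAD, rich medium with added adenine, in mid-log phase at 30°C, while the methods name YEPD, the same medium without that addition. Which medium was used is not known here, and adenine in the medium is known to repress the *ADE* genes. The labels call the arrays biological replicates, and the p-values measure the spread between these arrays. All values are log2 intensities normalised over the whole set of arrays, so a change is one relative to all transcripts, and less RNA of a gene and more RNA of the others cannot be told apart.

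Purines are built step by step on PRPP up to inosine monophosphate (IMP), from which one branch leads to AMP and another to GMP. In yeast the transcription factors Bas1 and Pho2 switch on the *ADE* genes and genes of one-carbon metabolism together, and added adenine represses them. Pyrimidines are built as a free ring that is joined to PRPP at the orotate step and ends in UMP, from which UTP and CTP are made. *URA1*, *URA3*, *URA4* and *URA10* are activated by Ppr1, which senses intermediates of the pathway. *IMD2*, *URA2* and *URA8* are known for another kind of control, in which the choice of start site, or termination soon after the start, decides how much full-length mRNA is made.

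Array medians over all genes lay between 10.34 and 10.40, and all 34 genes were above the background of 4.19 to 4.44 on every array. The log2 fold change, given throughout with its standard error, was 1.18 ± 0.09 for *RNA14* in *rna14-1* cells and 0.66 ± 0.08 for *RNA15* in *rna15-1* cells. Neither allele removes the gene, so these values are no check of the labels. *rna15-1* replicate 3 stood apart, with a correlation across genes of 0.964 to 0.965 with replicates 1 and 2, against 0.997 between those. It was also closer to the *rna14-1* arrays, at 0.939 to 0.946, than *rna15-1* replicates 1 and 2 were, at 0.901 to 0.918. On replicates 1 and 2, but not on replicate 3, the 257 genes of chromosome V were high, with medians 0.72, 0.67 and 0.04 above the wild-type mean. Wild-type replicates 1 and 2 correlated at 0.981 to 0.989 with replicates 3 to 5, against 0.991 to 0.996 among the latter. The mating type given in the labels was not what the markers showed, since 4 genes that mark MATα cells lay at 11.4 to 14.2 on all arrays. The 5 genes that mark MATa cells lay at 5.79 to 8.30 in the wild type, 8.31 to 12.3 in *rna14-1* and 8.55 to 12.2 in *rna15-1*. The part of these differences in the results below was not tested, and results are given without *rna15-1* replicate 3 too where its omission changed a call or moved a called value by over 1.5 times.

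In both mutants the genes for de novo purine synthesis were mostly higher than in the wild type, with 7 of 12 risen in *rna14-1* and 8 in *rna15-1*. Of the 5 genes that turn IMP into GTP, 4 fell in *rna14-1* and 2 in *rna15-1*. The pyrimidine genes went both ways within 1 pathway, and of the 3 genes that take up or salvage uracil and uridine, 3 fell in *rna14-1* and 2 in *rna15-1*. The largest rise was that of *ADE17*, 5.03-fold in *rna14-1*, and the largest fall that of *FUR1*, 2.83-fold in *rna14-1*. In *rna14-1*, 12 of the 34 genes rose (35.3%) and 12 fell (35.3%), at a Benjamini-Hochberg adjusted p under 0.01 in the limma fit of all genes. Of all 5449 genes, 32.8% had risen there and 29.5% had fallen, so these shares lie near the background. In *rna15-1*, 11 rose (32.4%) and 9 fell (26.5%), against 28.2% and 24.7% of all genes. Without *rna15-1* replicate 3, 13 rose and 10 fell, against 28.7% and 24.1% of all genes. The median size of the change, without its sign, was 0.69 in *rna14-1* and 0.65 in *rna15-1* for the 34 genes, and 0.52 and 0.42 for all genes. At the study's own thresholds, which add a change of over 2-fold, an average intensity A over 7 on the log2 scale and limma's B over 2, *rna14-1* had 5 of the 34 genes up and 3 down (10.1% and 7.96% of all genes). In *rna15-1* they were 7 and 2 (6.53% and 5.32%). By the arrays alone, 14 genes lay above and 14 below every wild-type array on all *rna14-1* arrays (37.7% and 36.1% of all genes), and 11 and 11 on all *rna15-1* arrays (32.6% and 29.1%). Both comparisons use the same wild-type arrays.

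**Figure D1:**
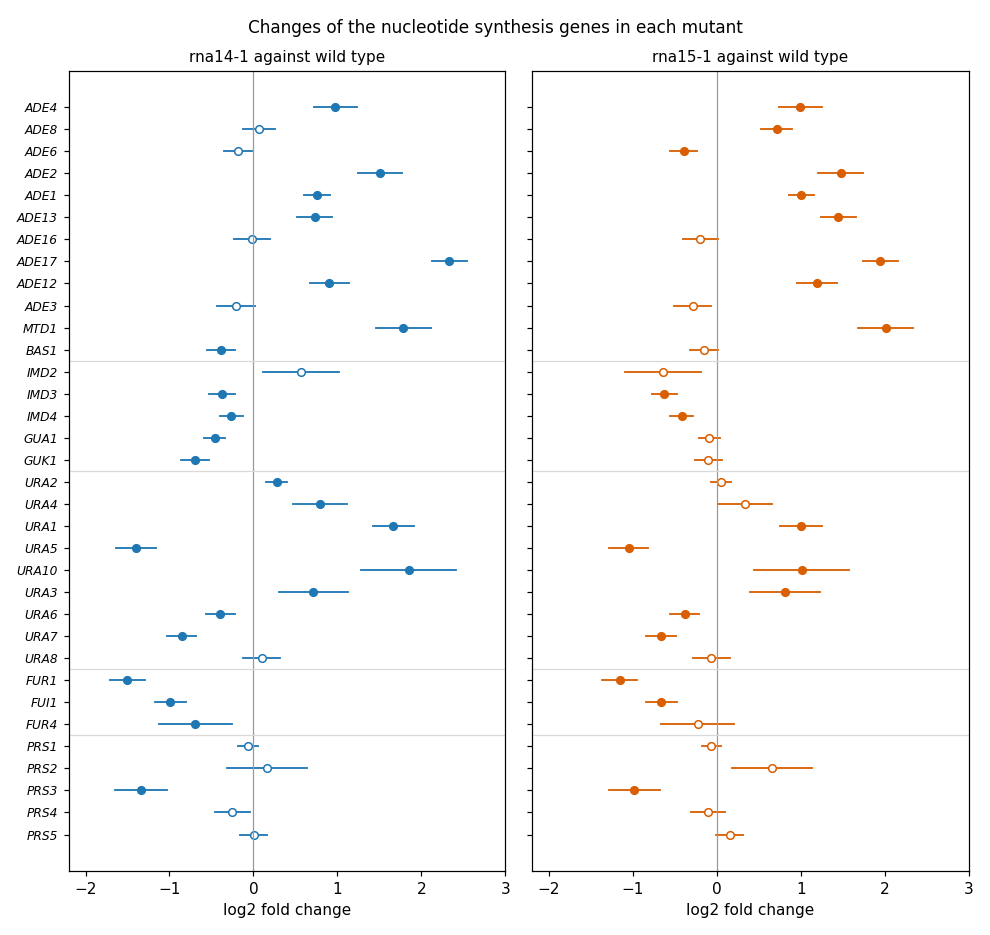
Log2 fold change of each of the 34 genes in each mutant against the wild type, ordered by role. Bars are 95% intervals of limma's fit (3 mutant against 5 wild-type arrays), and filled points have an adjusted p under 0.01. Most *ADE* genes and *MTD1* lie to the right of 0 in both mutants and the *IMD*, *GUA1*, *GUK1*, *FUR* and *FUI1* genes mostly to the left, with *IMD2* on opposite sides.

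**Figure D2:**
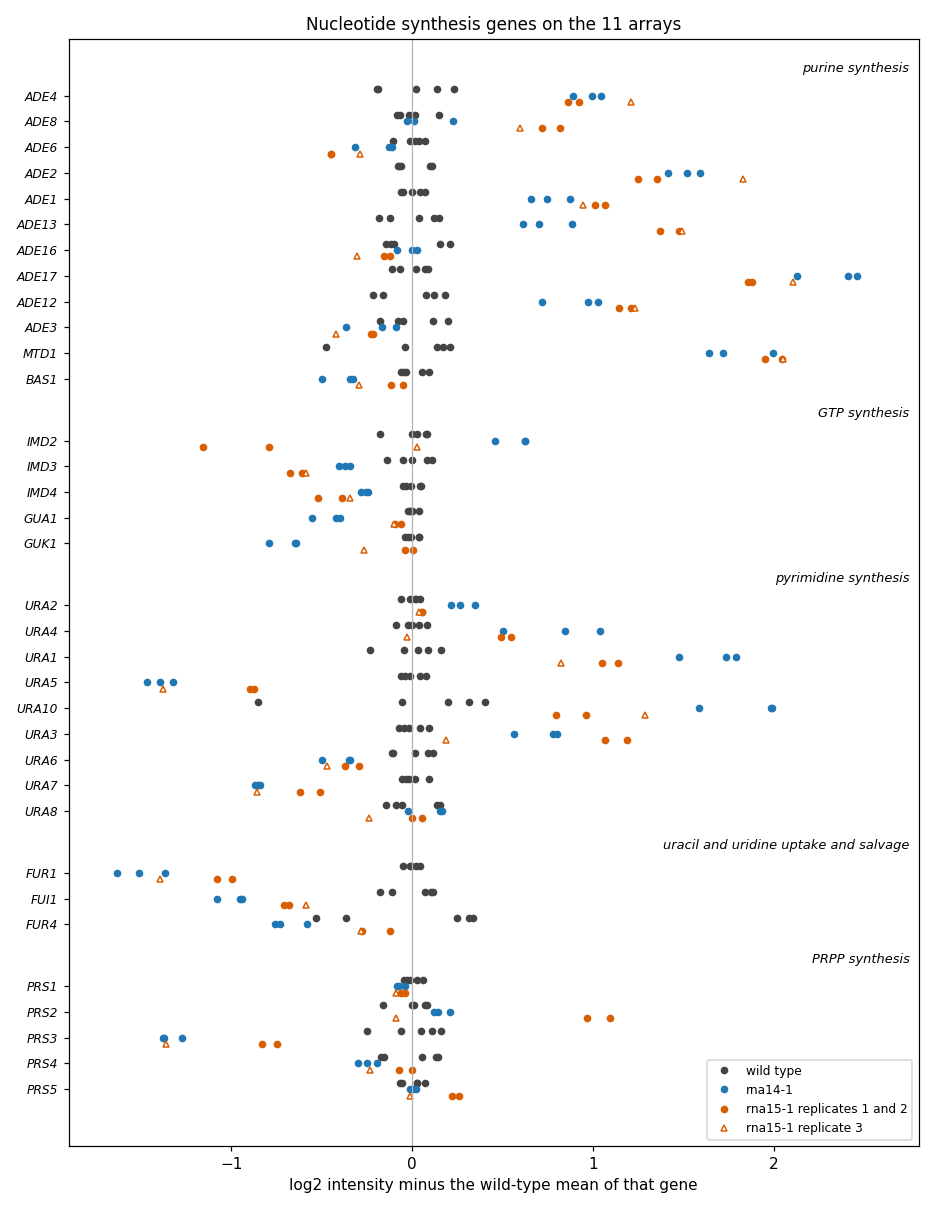
Level of each of the 34 genes on each of the 11 arrays, as the difference in log2 intensity from the mean of the 5 wild-type arrays. *ADE17*, *MTD1* and *ADE2* are high on all 6 mutant arrays and *FUR1*, *URA5* and *PRS3* are low, while *IMD2*, *PRS2* and *URA3* on *rna15-1* replicate 3 differ from the other *rna15-1* arrays.

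Of the 12 purine genes, 7 rose and 1 fell in *rna14-1*, against 32.8% and 29.5% of all genes. In *rna15-1*, 8 rose and 1 fell, against 28.2% and 24.7%. Those that rose in *rna14-1* were *ADE1*, *ADE2*, *ADE4*, *ADE12*, *ADE13*, *ADE17* and *MTD1*, and in *rna15-1* they were these and *ADE8*. The gene that fell was the activator gene *BAS1* in *rna14-1* and *ADE6* in *rna15-1*. The median of the group was 0.75 in *rna14-1* and 1.00 in *rna15-1*, against 0.003 and 0.028 for all genes. The counts of risen genes were the same without *rna15-1* replicate 3, with either set of wild-type arrays alone, and after quantile normalisation. The count of fallen genes in *rna15-1* was less stable. It was 0 with the replicate number as a block (18.3% of all genes) and more than 1 with wild-type replicates 1 and 2 alone (19.1%).

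The pathway begins with *ADE4* (YMR300C, chromosome XIII), whose product, the PRPP amidotransferase, carries out the step at which adenine nucleotides hold back the pathway. Its log2 intensities were 10.59, 10.58, 10.91, 10.80 and 11.01 on the 5 wild-type arrays, 11.67, 11.82 and 11.77 in *rna14-1* and 11.64, 11.70 and 11.99 in *rna15-1*. All mutant arrays lay above all wild-type arrays, and the mutants overlapped each other. *ADE4* rose by 0.98 ± 0.12 in *rna14-1* and 1.00 ± 0.12 in *rna15-1*, with limma's adjusted p at 2.3e-05 and 2.8e-05. On wild-type replicates 3 to 5 *ADE4* was 0.32 above replicates 1 and 2, less than the change in either mutant.

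*ADE8*, which encodes the glycinamide ribotide transformylase of an early step, separated the mutants. Its values were 11.03, 11.13, 11.05, 11.10 and 11.27 in the wild type, 11.09, 11.34 and 11.12 in *rna14-1* and 11.83, 11.93 and 11.71 in *rna15-1*. The *rna14-1* arrays lay within or just above the wild-type range, while all *rna15-1* arrays were higher than every other array. It rose by 0.71 ± 0.08 in *rna15-1* (adjusted p = 3.0e-05) and had 0.07 ± 0.08 in *rna14-1* (95% interval -0.12 to 0.25, adjusted p = 0.49). The difference between the mutants, 0.65 ± 0.09, passed the test itself (adjusted p = 0.00034).

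*ADE6*, for the formylglycinamidine ribotide synthetase that follows, was the purine gene that fell in *rna15-1*, by 0.40 ± 0.07 (adjusted p = 0.00071). Its values were 13.02, 12.94, 12.84, 12.96 and 12.99 in the wild type, 12.63, 12.82 and 12.84 in *rna14-1* and 12.50, 12.50 and 12.66 in *rna15-1*. The highest *rna14-1* array equalled the lowest wild-type array to 2 decimals, and the change in *rna14-1* was -0.18 ± 0.07 (adjusted p = 0.041). In *rna15-1*, *ADE6* was thus below the wild type, while *ADE8* before it and *ADE2* after it were above.

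*ADE2* and *ADE1* encode the consecutive enzymes that carboxylate the ring and attach aspartate to it. *ADE2* (YOR128C, chromosome XV) is the gene mutated in all strains by *ade2-1*, the allele behind the red colour of such colonies. Its transcript was at 9.75, 9.74, 9.57, 9.57 and 9.58 in the wild type, 11.06, 11.23 and 11.16 in *rna14-1* and 10.89, 11.00 and 11.47 in *rna15-1*. No mutant array came within 1 log2 unit of the wild type, and *rna15-1* replicate 3 was the highest of all. The rise was 1.51 ± 0.12 in *rna14-1*, 2.85-fold, and 1.48 ± 0.12 in *rna15-1*, 2.78-fold (adjusted p = 1.2e-06 and 2.1e-06).

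*ADE1* (YAR015W, chromosome I) was at 10.97, 11.07, 10.98, 11.03 and 11.10 in the wild type, 11.69, 11.90 and 11.78 in *rna14-1* and 12.10, 12.04 and 11.97 in *rna15-1*. The 3 groups did not overlap, and the order was the wild type, *rna14-1* and *rna15-1*. It rose by 0.76 ± 0.07 and 1.01 ± 0.07, with adjusted p values of 2.8e-06 and 6.7e-07. The difference between the mutants was 0.25, with an adjusted p of 0.019. The fourth gene from *ADE1* on the same chromosome, *UIP3*, fell by 8.52 in *rna15-1*, and the adjacent genes *BUD14* and *KIN3* had -0.21 and -0.29 there.

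*ADE13* encodes adenylosuccinate lyase, which acts both on the way to IMP and on the branch from IMP to AMP, and *ADE12* encodes adenylosuccinate synthetase, which opens that branch. Both rose in both mutants, with *rna15-1* above *rna14-1*. *ADE13* (YLR359W, chromosome XII) was at 11.35, 11.41, 11.57, 11.66 and 11.68 in the wild type, 12.15, 12.42 and 12.24 in *rna14-1* and 13.01, 12.91 and 13.03 in *rna15-1*. The groups did not overlap. The change was 0.73 ± 0.10 in *rna14-1* and 1.45 ± 0.10 in *rna15-1*, with limma's adjusted p at 4.1e-05 and 5.7e-07, and the mutants differed by 0.72 ± 0.11 (adjusted p = 0.00037).

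*ADE12* (YNL220W, chromosome XIV) was at 11.46, 11.40, 11.69, 11.80 and 11.74 in the wild type, 12.33, 12.65 and 12.59 in *rna14-1* and 12.83, 12.76 and 12.85 in *rna15-1*. Here too no array of one strain overlapped those of another. The gene rose by 0.91 ± 0.11 and 1.20 ± 0.11 (adjusted p = 2.1e-05 and 4.1e-06). The mutants differed by 0.29 ± 0.12, which did not pass the test (95% interval 0.03 to 0.56, adjusted p = 0.067).

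The last steps to IMP are carried out by a pair of isozymes, Ade16 and Ade17, which join a formyl group to the ring and close it. *ADE17* (YMR120C, chromosome XIII) had the largest change of the 34 genes in *rna14-1*, while in *rna15-1* that of *MTD1* was larger. Its log2 intensities were 9.73, 9.78, 9.92, 9.86 and 9.93 in the wild type, 11.97, 12.30 and 12.25 in *rna14-1* and 11.73, 11.70 and 11.95 in *rna15-1*. The lowest mutant array was more than 1 log2 unit above the highest wild-type array. *ADE17* rose by 2.33 ± 0.10 in *rna14-1* and 1.95 ± 0.10 in *rna15-1*, which is 5.03-fold and 3.86-fold (adjusted p = 4.0e-08 and 7.1e-08). The value in *rna15-1* was lower than in *rna14-1* by 0.38, with an adjusted p of 0.012, and by 0.46 without *rna15-1* replicate 3 (adjusted p = 0.0035).

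*ADE16* (YLR028C, chromosome XII), for the other isozyme, was at 12.26, 12.20, 11.90, 11.95 and 11.93 in the wild type, 11.96, 12.04 and 12.07 in *rna14-1* and 11.89, 11.92 and 11.74 in *rna15-1*. The mutant arrays lay in or near the wild-type range, whose upper end came from wild-type replicates 1 and 2. Its change was -0.02 ± 0.10 in *rna14-1* (95% interval -0.23 to 0.19) and -0.20 ± 0.10 in *rna15-1* (95% interval -0.41 to 0.02), and neither passed the test with all arrays. Over the alternative settings the change in *rna15-1* ran from -0.38 to -0.08, with limma's adjusted p as low as 0.0068. The difference in log2 intensity between *ADE17* and *ADE16* moved by 2.35 in *rna14-1* and 2.15 in *rna15-1*, with no overlap between mutant and wild-type arrays. Each of these had a two-sided exact permutation p of 0.0357, the smallest that 3 against 5 arrays allow, and an adjusted p of 0.0357 over the 6 tests of 3 isozyme pairs.

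**Figure D3:**
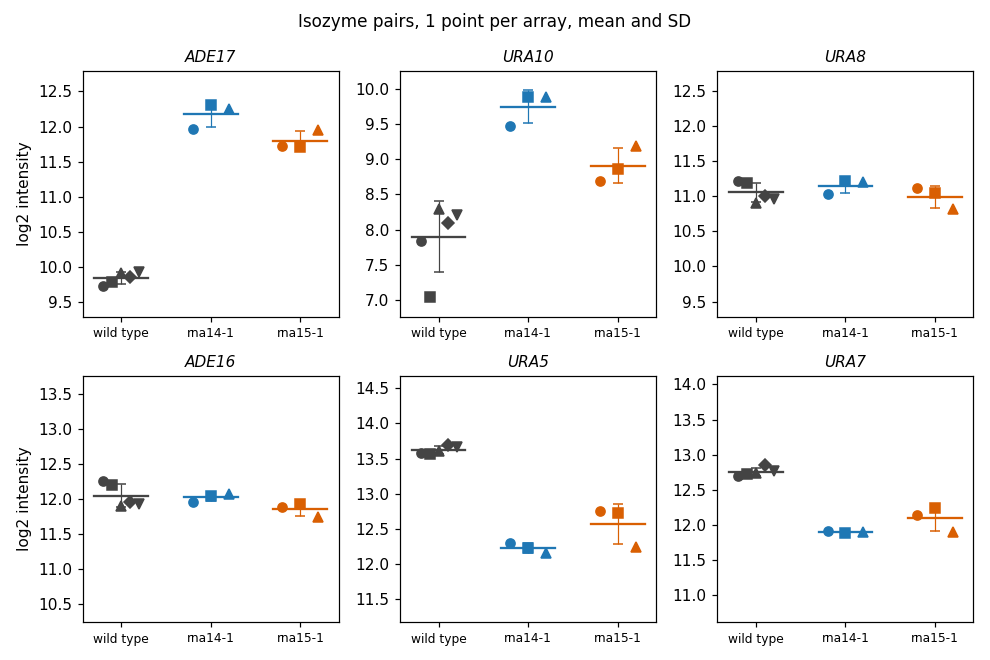
Log2 intensity of the isozyme pairs *ADE16* and *ADE17*, *URA5* and *URA10*, and *URA7* and *URA8* by strain. Each point is an array, the marker shape gives the replicate number, lines are means and bars SD (5 wild-type, 3 *rna14-1* and 3 *rna15-1* arrays), and panels span the same number of log2 units at different positions. *ADE17* and *URA10* are higher in the mutants and *URA5* and *URA7* lower, while mutant and wild-type arrays overlap for *ADE16* and *URA8*.

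Purine synthesis draws one-carbon units from folates, made in the cytoplasm by the enzymes of *ADE3* and *MTD1*. *MTD1*, for an NAD-dependent methylenetetrahydrofolate dehydrogenase (YKR080W, chromosome XI), rose in both mutants. It was at 8.96, 9.40, 9.61, 9.58 and 9.65 in the wild type, 11.08, 11.43 and 11.16 in *rna14-1* and 11.49, 11.39 and 11.49 in *rna15-1*. Wild-type replicate 1 was the lowest, and the mutants overlapped each other but not the wild type. The rise was 1.79 ± 0.15 in *rna14-1* and 2.02 ± 0.15 in *rna15-1*, or 3.45-fold and 4.04-fold (adjusted p = 1.7e-06 and 1.2e-06).

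*ADE3*, for the trifunctional tetrahydrofolate synthase, did not pass the test in either mutant. It was at 12.57 to 12.95 in the wild type, 12.38 to 12.66 in *rna14-1* and 12.33 to 12.53 in *rna15-1*, with changes of -0.21 ± 0.10 and -0.29 ± 0.10 (adjusted p = 0.084 and 0.027). *BAS1*, the gene of the activator itself, was at 10.79, 10.76, 10.64, 10.67 and 10.66 in the wild type, 10.38, 10.21 and 10.36 in *rna14-1* and 10.59, 10.65 and 10.41 in *rna15-1*. All *rna14-1* arrays lay below every other array. It fell by 0.39 ± 0.08 in *rna14-1* (adjusted p = 0.00071) and had -0.15 ± 0.08 in *rna15-1* (95% interval -0.32 to 0.01). *PHO2*, the gene of the partner of Bas1, rose by 0.90 ± 0.09 in *rna14-1* (adjusted p = 8.7e-06) and had 0.25 ± 0.09 in *rna15-1* (adjusted p = 0.037). It was lower in *rna15-1* than in *rna14-1* (adjusted p = 0.00068).

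Genes of the GTP branch were at or below the wild-type level in both mutants, apart from *IMD2* in *rna14-1*. Of 5 genes, 4 fell in *rna14-1* and 2 in *rna15-1*, where 29.5% and 24.7% of all genes fell, and none rose by limma. At an unadjusted p under 0.05, 1 was higher and 4 were lower in *rna14-1*, and none was higher and 3 were lower in *rna15-1*. The median was -0.37 and -0.42. With wild-type replicates 1 and 2 alone, 2 fell in *rna14-1*, against 24.1% of all genes.

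*IMD2*, *IMD3* and *IMD4* encode IMP dehydrogenase, the step that commits IMP to GMP. *IMD3* (YLR432W) was at 12.77, 12.68, 12.82, 12.90 and 12.93 in the wild type, 12.48, 12.45 and 12.42 in *rna14-1* and 12.15, 12.21 and 12.24 in *rna15-1*. The strains did not overlap. It fell by 0.37 ± 0.07 and 0.62 ± 0.07 (adjusted p = 0.0005 and 1.7e-05). *IMD4* (YML056C) was at 13.51 to 13.62 in the wild type, 13.29 to 13.32 in *rna14-1* and 13.04 to 13.22 in *rna15-1*. It fell by 0.26 ± 0.06 and 0.42 ± 0.06, and its adjusted p in *rna14-1*, 0.0024, became 0.011 without *rna14-1* replicate 1 (-0.25) or 3 (-0.26).

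*GUA1* and *GUK1* encode GMP synthetase and guanylate kinase, which carry the branch on to GMP and GDP. Both fell in *rna14-1*, and both were higher in *rna15-1* than in *rna14-1*. *GUA1* was at 13.42, 13.41, 13.43, 13.40 and 13.47 in the wild type, 13.00, 13.03 and 12.87 in *rna14-1* and 13.33, 13.36 and 13.32 in *rna15-1*. It fell by 0.46 ± 0.06 in *rna14-1* (adjusted p = 2.8e-05) and had -0.09 ± 0.06 in *rna15-1* (95% interval -0.21 to 0.04). All 3 *rna15-1* arrays lay between the *rna14-1* and the wild-type arrays, and the mutants differed by 0.37 ± 0.06 (adjusted p = 0.00084).

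*GUK1* was at 13.19, 13.25, 13.18, 13.21 and 13.26 in the wild type, 12.58, 12.57 and 12.42 in *rna14-1* and 13.22, 13.18 and 12.95 in *rna15-1*. All *rna14-1* arrays lay below all others, and *rna15-1* replicate 3 lay between them and the wild type. It fell by 0.69 ± 0.07 in *rna14-1* (adjusted p = 9.2e-06) and had -0.10 ± 0.07 in *rna15-1* (95% interval -0.26 to 0.06), and the mutants differed by 0.59 ± 0.08 (adjusted p = 0.00024).

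The 3 genes known for control by start site choice and early termination did not move together. *IMD2* was higher in *rna14-1* than in *rna15-1*, *URA2* rose slightly in *rna14-1*, and *URA8* passed the test in neither mutant. *IMD2* (YHR216W, chromosome VIII), whose probe set carries the maker's suffix for sequence shared with other genes, was at 11.41, 11.20, 11.38, 11.45 and 11.46 in the wild type. It was at 11.84, 12.00 and 12.01 in *rna14-1* and at 10.23, 10.59 and 11.41 in *rna15-1*. The *rna14-1* arrays were above all others, and *rna15-1* replicates 1 and 2 below all others, while replicate 3 lay in the wild-type range.

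With all arrays, the change of *IMD2* was 0.57 ± 0.21 in *rna14-1* (adjusted p = 0.027) and -0.64 ± 0.21 in *rna15-1* (adjusted p = 0.017). Without *rna15-1* replicate 3 both passed, with 0.57 (adjusted p = 0.00028) and -0.97 (adjusted p = 2.8e-05). The difference between the mutants was -1.21 ± 0.23 with all arrays, 2.31-fold lower in *rna15-1* (adjusted p = 0.0016). It was the largest difference between the mutants among the 34 genes. Signal from near-identical *IMD* sequences cannot be told apart from that of *IMD2*, and *IMD3* and *IMD4* differed from the wild type in the same direction in both mutants. *IMD1*, another *IMD* gene, was not among the genes analysed here. Of the genes just before *IMD2* on its chromosome, YHR213W-A changed by -1.82 in *rna15-1* (limma's adjusted p = 0.00013) and YHR214C-E by -1.045 (adjusted p = 0.015). YHR214C-D, YHR213W and YHR212W-A had -0.39, 0.562 and 0.455 there. In *rna14-1*, YHR214C-E and YHR214C-D had 0.515 and 1.165, so both differed in sign between the mutants, as *IMD2* did. YHR213W-A, YHR213W and YHR212W-A had -0.986, 0.652 and 0.587 in *rna14-1*, with the same sign as in *rna15-1*. The part of these neighbours' changes or of *IMD1* in the *IMD2* signal was not tested.

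*URA2* and *URA8* open and close the pyrimidine pathway. *URA2* (YJL130C, chromosome X), for the enzyme that makes carbamoyl phosphate and joins it to aspartate, was at 12.92, 12.94, 12.84, 12.91 and 12.88 in the wild type. It was at 13.11, 13.16 and 13.25 in *rna14-1* and 12.95, 12.95 and 12.94 in *rna15-1*. It rose by 0.28 ± 0.06 in *rna14-1*, with all arrays above the others (adjusted p = 0.00096), and had 0.05 ± 0.06 in *rna15-1* (95% interval -0.07 to 0.17). *URA8* (YJR103W, chromosome X), for 1 of a pair of CTP synthases, was at 11.21, 11.19, 10.91, 11.00 and 10.96 in the wild type, 11.03, 11.22 and 11.21 in *rna14-1* and 11.11, 11.05 and 10.82 in *rna15-1*. Its changes were 0.10 ± 0.10 (95% interval -0.12 to 0.31) and -0.06 ± 0.10 (95% interval -0.28 to 0.15). The mutant arrays lay within or near the wild-type range.

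**Figure D4:**
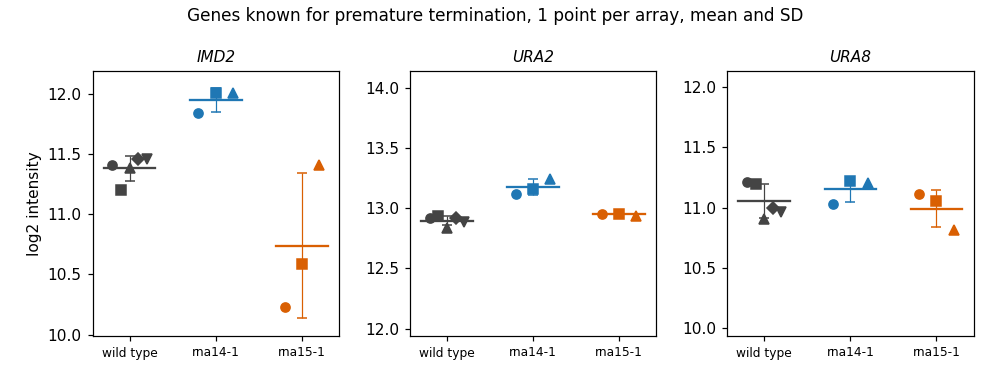
Log2 intensity of *IMD2*, *URA2* and *URA8* by strain, with 1 point per array, the marker shape giving the replicate number, lines for means and bars for SD (5 wild-type, 3 *rna14-1* and 3 *rna15-1* arrays). The *rna14-1* arrays are the highest for *IMD2* and *URA2*, *rna15-1* replicates 1 and 2 are the lowest for *IMD2*, and the strains overlap for *URA8*.

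Within the pyrimidine pathway some genes rose and others fell. Of 9 genes, 5 rose and 3 fell in *rna14-1*, where 32.8% and 29.5% of all genes did. The counts in *rna15-1* were 3 and 3, against 28.2% and 24.7% of all genes. In *rna14-1*, *URA1*, *URA2*, *URA3*, *URA4* and *URA10* rose, and *URA5*, *URA6* and *URA7* fell. The same *URA5*, *URA6* and *URA7* fell in *rna15-1*, where *URA1*, *URA3* and *URA10* rose. The 4 genes known as targets of Ppr1, which are *URA1*, *URA3*, *URA4* and *URA10*, all rose in *rna14-1*, and all but *URA4* rose in *rna15-1*. Without *rna15-1* replicate 3, *URA4* passed in *rna15-1* (adjusted p = 0.0033) and *URA10* did not (adjusted p = 0.023). The calls of *URA3* in both mutants and of *URA10* in *rna15-1* depended on single arrays, as given below. With wild-type replicates 1 and 2 alone, 3 pyrimidine genes rose and 2 fell in *rna14-1*, against 27.9% and 24.1% of all genes.

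*URA4* and *URA1* encode dihydroorotase and dihydroorotate dehydrogenase, which close the ring and oxidise it. *URA1* (YKL216W, chromosome XI) was at 11.80, 11.99, 12.07, 12.13 and 12.19 in the wild type, 13.51, 13.82 and 13.77 in *rna14-1* and 13.09, 13.17 and 12.86 in *rna15-1*. The 3 strains did not overlap, with *rna14-1* the highest. It rose by 1.67 ± 0.11 in *rna14-1*, 3.18-fold, and by 1.00 ± 0.11 in *rna15-1*, 2.00-fold (adjusted p = 4.1e-07 and 1.8e-05). The mutants differed by -0.67 ± 0.12 (adjusted p = 0.0015).

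*URA4* (YLR420W) was at 11.70, 11.63, 11.72, 11.76 and 11.80 in the wild type, 12.22, 12.76 and 12.56 in *rna14-1* and 12.21, 12.27 and 11.69 in *rna15-1*. All *rna14-1* arrays were above the wild type, and of *rna15-1* replicates 1 and 2 were, while replicate 3 lay in the wild-type range. The change was 0.80 ± 0.14 in *rna14-1* (adjusted p = 0.00046) and 0.34 ± 0.14 in *rna15-1* (adjusted p = 0.06). Without *rna15-1* replicate 3 the latter was 0.52 and passed the test (adjusted p = 0.0033).

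Orotate is joined to PRPP by isozymes of the genes *URA5* and *URA10*, which moved in opposite directions. *URA5* (YML106W, chromosome XIII) was at 13.59, 13.56, 13.61, 13.70 and 13.67 in the wild type, 12.30, 12.23 and 12.16 in *rna14-1* and 12.75, 12.72 and 12.25 in *rna15-1*. Every mutant array was lower than every wild-type array. It fell by 1.40 ± 0.11 in *rna14-1* and 1.05 ± 0.11 in *rna15-1*, or 2.63-fold and 2.07-fold (adjusted p = 1.0e-06 and 1.0e-05). The *rna15-1* value was lowest on replicate 3.

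*URA10* (YMR271C, chromosome XIII) was at 7.84, 7.04, 8.30, 8.09 and 8.21 in the wild type, 9.48, 9.88 and 9.88 in *rna14-1* and 8.69, 8.86 and 9.18 in *rna15-1*. The wild-type arrays spread over more than 1 log2 unit, yet the strains did not overlap. It rose by 1.85 ± 0.26 in *rna14-1* (adjusted p = 6.6e-05) and by 1.01 ± 0.26 in *rna15-1* (adjusted p = 0.0049). The call in *rna15-1* was lost without *rna15-1* replicate 2 (1.04, adjusted p = 0.014), without replicate 3 (0.88, adjusted p = 0.023) and without wild-type replicate 1 (1.00, adjusted p = 0.011). The difference between *URA10* and *URA5* moved by 3.25 in *rna14-1* and 2.06 in *rna15-1* (two-sided exact permutation p = 0.0357 for each).

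*URA3* (YEL021W, chromosome V), for orotidine monophosphate decarboxylase, carries *ura3-1* in all strains. Its transcript was at 11.81, 11.75, 11.78, 11.87 and 11.92 in the wild type, 12.39, 12.63 and 12.60 in *rna14-1* and 12.89, 13.01 and 12.01 in *rna15-1*. Replicate 3 of *rna15-1* lay between the wild type and *rna14-1*, and replicates 1 and 2 were the highest. It rose by 0.71 ± 0.19 in *rna14-1* and 0.81 ± 0.19 in *rna15-1*, with limma's adjusted p at 0.0051 and 0.0027.

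*URA3* lies on the chromosome whose genes were high on *rna15-1* replicates 1 and 2. With the genes of chromosome V shifted on each array to the median of all genes, a setting chosen after seeing the data, *URA3* had 0.77 in *rna14-1* (adjusted p = 1.3e-05) and 0.37 in *rna15-1* (adjusted p = 0.0032). The difference between the mutants then changed from 0.10 (adjusted p = 0.71) to -0.40 (adjusted p = 0.0059). Without *rna15-1* replicate 3 and with no such shift, *URA3* had 1.13 in *rna15-1* (adjusted p = 1.6e-06), and the difference between the mutants was 0.42 (adjusted p = 0.0025). The sign of that difference thus depended on the setting. The call in *rna14-1* was lost without *rna14-1* replicate 2 or 3 or wild-type replicate 1, 2 or 3 (0.67 to 0.71, adjusted p = 0.011 to 0.023). In *rna15-1* it was lost without replicate 1 (0.69, adjusted p = 0.016) or replicate 2 (0.63, adjusted p = 0.015).

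**Figure D5:**
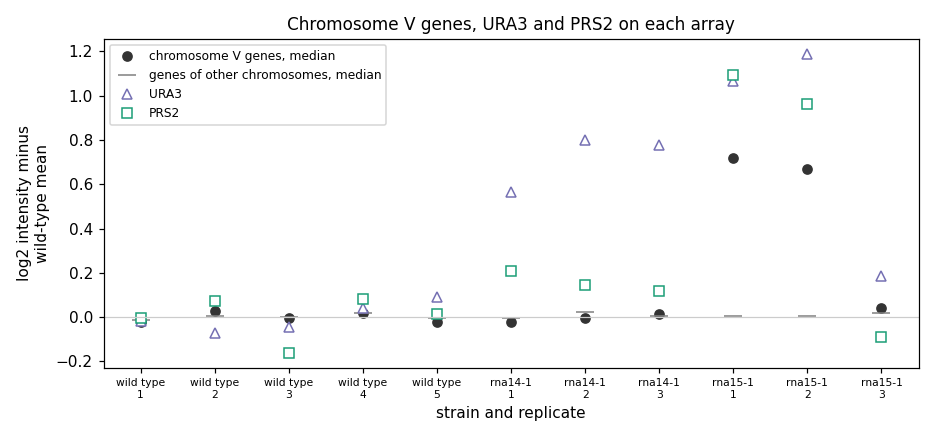
Log2 difference from the wild-type mean of *URA3* and *PRS2*, the 2 genes of the 34 on chromosome V, beside the median of the 257 chromosome V genes, on each array. *rna15-1* replicates 1 and 2 are high for all 3, with chromosome V medians of 0.72 and 0.67, and on replicate 3 the median is 0.04.

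UMP is turned into UDP by the kinase of *URA6* and UTP into CTP by the synthases of *URA7* and *URA8*. *URA6* was at 12.04 to 12.27 in the wild type, 11.65 to 11.80 in *rna14-1* and 11.68 to 11.85 in *rna15-1*, and fell by 0.40 ± 0.08 and 0.38 ± 0.08 (adjusted p = 0.00087 and 0.0015). *URA7* (YBL039C, chromosome II) was at 12.70, 12.72, 12.74, 12.85 and 12.77 in the wild type, 11.92, 11.89 and 11.90 in *rna14-1* and 12.14, 12.25 and 11.90 in *rna15-1*. Every mutant array lay below every wild-type array. It fell by 0.86 ± 0.08 and 0.66 ± 0.08, or 1.81-fold and 1.58-fold (adjusted p = 3.4e-06 and 3.0e-05). The difference between *URA8* and *URA7* moved by 0.95 in *rna14-1* and 0.60 in *rna15-1* (two-sided exact permutation p = 0.0357 for each).

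All 3 genes for bringing uracil and uridine into nucleotides were lower in *rna14-1*, and 2 of them in *rna15-1*, against 29.5% and 24.7% of all genes. *FUR1*, for the uracil phosphoribosyltransferase that turns uracil into UMP (YHR128W, chromosome VIII), had the largest fall of the 34 genes in both mutants. It was at 13.31, 13.28, 13.32, 13.35 and 13.37 in the wild type, 11.96, 11.82 and 11.69 in *rna14-1* and 12.24, 12.33 and 11.93 in *rna15-1*. The wild-type arrays lay close together, and every mutant array was lower than each of them. *FUR1* fell by 1.50 ± 0.09 in *rna14-1* and 1.16 ± 0.09 in *rna15-1*, or 2.83-fold and 2.23-fold (adjusted p = 2.6e-07 and 2.0e-06).

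*FUI1*, for the uridine permease (YBL042C, chromosome II), was at 12.70, 12.63, 12.93, 12.92 and 12.89 in the wild type, 11.86, 11.87 and 11.74 in *rna14-1* and 12.11, 12.13 and 12.23 in *rna15-1*. The strains did not overlap, with *rna15-1* between the others. It fell by 0.99 ± 0.08 and 0.66 ± 0.08 (adjusted p = 1.8e-06 and 4.8e-05). *FUR4*, for the uracil permease (YBR021W, chromosome II), was at 10.38, 10.21, 11.06, 11.00 and 11.08 in the wild type, 9.99, 10.17 and 10.02 in *rna14-1* and 10.47, 10.62 and 10.46 in *rna15-1*.

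Wild-type replicates 1 and 2 were lower for *FUR4* than replicates 3 to 5 by 0.75. It fell by 0.69 ± 0.20 in *rna14-1* (adjusted p = 0.0083) and had -0.23 ± 0.20 in *rna15-1* (95% interval -0.66 to 0.21). Against wild-type replicates 1 and 2 alone the change in *rna14-1* was -0.24 (adjusted p = 0.062), and against replicates 3 to 5 alone the change in *rna15-1* was -0.53 (adjusted p = 0.00035). The call in *rna14-1* was lost without any 1 of the 6 mutant arrays or of wild-type replicates 3, 4 and 5 (-0.61 to -0.75, adjusted p = 0.010 to 0.032). The *FUR4* call thus depended on which arrays entered the fit.

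The 5 *PRS* genes encode subunits of PRPP synthetase, and of these *PRS3* alone passed the test with all arrays. *PRS3* (YHL011C, chromosome VIII) was at 12.66, 12.47, 12.77, 12.88 and 12.83 in the wild type, 11.45, 11.35 and 11.34 in *rna14-1* and 11.89, 11.97 and 11.36 in *rna15-1*. All mutant arrays lay below the wild type, with *rna15-1* replicate 3 at the level of *rna14-1*. It fell by 1.34 ± 0.14 and 0.98 ± 0.14, or 2.53-fold and 1.97-fold (adjusted p = 7.5e-06 and 0.00011).

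*PRS1* was close to level, at 12.48 to 12.58 in the wild type, 12.44 to 12.48 in *rna14-1* and 12.43 to 12.48 in *rna15-1*, with 95% intervals of the change of -0.18 to 0.05 and -0.18 to 0.05. *PRS4* and *PRS5* had -0.25 ± 0.09 and 0.00 ± 0.07 in *rna14-1* and -0.10 ± 0.09 and 0.16 ± 0.07 in *rna15-1*. None of these passed the test with all arrays, and *PRS5* did in *rna15-1* without replicate 3 (0.24, adjusted p = 0.0044).

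*PRS2* (YER099C) lies on chromosome V like *URA3*. It was at 10.70, 10.78, 10.55, 10.79 and 10.72 in the wild type, 10.91, 10.85 and 10.83 in *rna14-1* and 11.80, 11.67 and 10.62 in *rna15-1*. Replicates 1 and 2 of *rna15-1* were about 1 log2 unit above replicate 3, which lay in the wild-type range. The change in *rna15-1* was 0.66 ± 0.22 with all arrays (adjusted p = 0.02), 1.03 without replicate 3 (adjusted p = 2e-06) and 0.21 with chromosome V shifted to the median of all genes (adjusted p = 0.089). The difference between the mutants was 0.50 ± 0.24 with all arrays (adjusted p = 0.11), 0.87 without replicate 3 (adjusted p = 1.5e-05) and -0.01 with the shift (adjusted p = 0.97).

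Set against *rna14-1*, *rna15-1* had higher levels of 4 of the 34 genes (11.8%) and lower levels of 2 (5.88%), against 16.0% and 16.5% of all genes. *ADE8*, *ADE13*, *GUA1* and *GUK1* were the higher ones, and *IMD2* and *URA1* the lower ones. At the study's thresholds limma gave 0 higher and 0 lower (2.02% and 2.88% of all genes), against 11 and 9 at an unadjusted p under 0.05. All *rna15-1* arrays lay above all *rna14-1* arrays for 9 genes and below them for 8 (29.5% and 29.1% of all genes). The median difference without its sign was 0.25 for the 34 genes and 0.32 for all genes. Without *rna15-1* replicate 3, 12 genes were higher and 3 lower, against 24.3% and 22.3% of all genes. Among those that passed only then, *URA5* differed by 0.51, *FUR1* by 0.47 and *PRS3* by 0.55, all less reduced in *rna15-1* replicates 1 and 2 than in *rna14-1*. *BAS1*, *URA7* and *PRS5* then differed by 0.31, 0.29 and 0.24 (adjusted p = 0.0062, 0.0039 and 0.0086). Replicate 3 itself differed from the mean of replicates 1 and 2 by 1.00 for *IMD2* and 0.53 for *ADE2*, and by -1.12 for *PRS2*, -0.94 for *URA3* and -0.58 for *PRS3*.

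Of 38 further genes of nucleotide metabolism, listed by pathway, 35 were analysed here. In *rna14-1*, 6 of them rose (17.1%) and 15 fell (42.9%), against 32.8% and 29.5% of all genes. In *rna15-1*, 9 rose (25.7%) and 11 fell (31.4%), against 28.2% and 24.7%. Among the 16 genes that salvage, interconvert or take up purines, none rose by limma and 9 fell in *rna14-1* (1 higher and 9 lower at an unadjusted p under 0.05), against 29.5% of all genes that fell. *rna15-1* had 2 that rose and 6 that fell. These counts are with all arrays. *ADK2* then had 0.65 ± 0.26 in *rna14-1* (limma's adjusted p = 0.045), and without *rna15-1* replicate 3 this rise passed (adjusted p = 9.4e-05). In *rna15-1* without replicate 3, *FCY22* passed (0.73, adjusted p = 0.0019) and *TPN1* did not (-0.37, adjusted p = 0.022). *FCY22* lies on chromosome V and had 0.05 in *rna15-1* with that chromosome shifted (adjusted p = 0.75). *APT1*, for the adenine phosphoribosyltransferase that turns adenine into AMP, fell by 1.53 ± 0.13 in *rna14-1* and 1.05 ± 0.13 in *rna15-1*. *FCY1*, for cytosine deaminase, fell by 1.60 ± 0.12 and 0.82 ± 0.12. *FCY21*, a relative of the purine-cytosine permease gene *FCY2*, fell by 1.68 ± 0.26 and 1.18 ± 0.26. The adjusted p of these was at most 0.0023 in each mutant. *FCY21* lies on chromosome V, and its change in *rna15-1* was -0.72 without replicate 3 (adjusted p = 1.5e-05). With chromosome V shifted to the median of all genes it was -1.63 in *rna15-1* (adjusted p = 3.2e-06) and -1.62 in *rna14-1* (adjusted p = 2.3e-06).

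*CDD1*, for cytidine deaminase, rose by 1.47 ± 0.09 in *rna14-1* (adjusted p = 1.8e-07) and had 0.30 ± 0.09 in *rna15-1* (adjusted p = 0.011). The mutants differed (adjusted p = 7.7e-06). *SHM2*, for the cytoplasmic serine hydroxymethyltransferase that feeds one-carbon units to purine synthesis and is under Bas1 control like *MTD1*, rose by 1.13 ± 0.17 in *rna14-1* and 1.31 ± 0.17 in *rna15-1*, with limma's adjusted p at 0.00012 and 5.4e-05. Other one-carbon genes of the list went the other way. *MIS1* fell by 0.96 ± 0.06 in *rna14-1* and 0.94 ± 0.06 in *rna15-1*, and *DFR1* by 1.41 ± 0.15 and 0.83 ± 0.15 (limma's adjusted p at most 0.0007). *SHM1* passed the test in neither mutant. *ADK2*, for mitochondrial adenylate kinase, and *FAU1*, for a folate enzyme, rose by 1.64 ± 0.26 and 1.16 ± 0.16 in *rna15-1* (adjusted p = 0.00028 and 8.2e-05). Both lie on chromosome V, and their changes were 2.09 and 1.42 without replicate 3 (adjusted p = 2.2e-07 and 3.1e-07) and 1.19 and 0.72 with that chromosome shifted (adjusted p = 5.2e-05 and 3.3e-05). *PPR1*, for the activator of the *URA* genes, fell by 0.63 ± 0.13 in *rna15-1* (adjusted p = 0.0013) and had -0.14 ± 0.13 in *rna14-1* (95% interval -0.42 to 0.14).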

How the data were processed

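Total RNA of 5 wild-type, 3 *rna14-1* and 3 *rna15-1* cultures was labelled and hybridised to 1-colour Affymetrix arrays. Per the labels and methods, the authors ran GCOS on the scans, computed expression by RMA (robust multiarray average) and tested it in limma, with versions not given in the sources used here. The deposited values are log2 intensities, background-corrected and normalised over all arrays by the authors, and were used as they are. Precision is limited by how few arrays there are per strain.

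Of 10928 probe sets, 7244 have 1 gene symbol, 1 has several and 3683 have none in the platform's annotation. Those of genes in the R64 table, 5498, were tested as 5449 genes, with the brightest probe set for the 47 genes that have several. R64 served for names and gene order only, since the build of the files is not known. Background was the 95th percentile of 1746 named probe sets outside that table. All 11 arrays were fitted in R 4.3.3 with limma 3.58.1 (lmFit and eBayes, 1 coefficient per strain, no block), with Benjamini-Hochberg adjustment over all 5449 genes, and rose and fell stand for an adjusted p under 0.01. Isozyme differences were tested by exact permutation in scipy 1.17.1. Python 3.11.15 with matplotlib 3.10.9 drew the figures, and the fit was tested on simulated data.

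The genes, lists and tests were chosen with earlier results of these data known. Named are all 34 genes, *RNA14*, *RNA15* and, of the other pathway genes, per mutant the 4 with the largest change at an adjusted p under 0.01. *PHO2*, *PPR1*, *MIS1*, *DFR1*, *SHM1*, *FCY22*, *TPN1*, *UIP3* and the neighbours of *ADE1* and *IMD2* were named after their values were seen. The sequences of the genes were not analysed here. Alternatives changed the normalisation, the wild-type arrays, the probe sets, the filter, the features and groups in the fit, the variance model and the threshold, added a replicate block, or left out each array in turn. One more, for chromosome V, was chosen after seeing the data.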

Additional observations from a re-analysis of the deposited data

Results flagged for a closer look

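For 6 genes the 2 mutant strains differed, with the contrast of *rna15-1* against *rna14-1* at an adjusted p under 0.01 in limma. The strains also differed elsewhere, as in the chromosome V genes on *rna15-1* replicates 1 and 2 and in *UIP3*, which fell by 8.52 in *rna15-1*. The part of the alleles themselves in these differences was not tested. *ADE8* and *ADE13* were higher in *rna15-1*, by 0.646 and 0.715 on the log2 scale, as were *GUA1* and *GUK1*, by 0.372 and 0.593. *IMD2* and *URA1* were lower in *rna15-1*, with differences of -1.209 and -0.665. In the wild-type group no gene of the 34 had an array far outside the range of the others by Dixon's test, and the groups of 3 arrays were not tested.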

How the results depend on the processing

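At the thresholds of the methods (adjusted p under 0.01, B over 2, average log2 intensity over 7 and over 2-fold), of the 34 genes 5 were up and 3 down in *rna14-1*, 7 and 2 in *rna15-1*, and 0 were higher and 0 lower in *rna15-1* than in *rna14-1*. For that last comparison limma gave 9 higher and 7 lower at an adjusted p under 0.05 (24.7% of all genes each way). At an unadjusted p under 0.05 it gave 11 and 9. Lower genes in that comparison were 4 with wild-type replicates 3 to 5 (17.7% of all genes) or with eBayes trend (17.1%). They were 1 without probe sets of shared sequence, which leaves out *IMD2* (16.5%). The other pathway genes that fell in *rna15-1* were 6 with wild-type replicates 1 to 3 (20.4% of all genes). Leaving out 1 array in turn gave 11 to 13 genes that rose and 10 to 12 that fell in *rna14-1*. Of all genes, 28.4% to 35.4% then rose and 25.1% to 32.8% fell. In *rna15-1*, 9 to 13 rose and 9 to 10 fell, against 24.9% to 28.7% and 22% to 24.4% of all genes. Between the mutants 4 to 12 were higher and 2 to 3 lower, against 9.8% to 24.3% and 10.7% to 22.3%. The 12 higher came without *rna15-1* replicate 3. For the other pathway genes, leaving out 1 array gave 6 to 8 and 13 to 16 in *rna14-1*, and 7 to 10 and 9 to 13 in *rna15-1*. With the replicate number as a block, 10 of the 34 rose and 8 fell in *rna14-1* (27.5% and 23.7% of all genes). In *rna15-1* they were 10 and 7 (21.7% and 18.3%). Between the mutants 3 were higher and 2 lower (10.3% and 11.5%). Of the other pathway genes 6 fell in *rna15-1* with this block. Replicate numbers were not taken to pair the samples in the main fit. Deviations of same-numbered arrays correlated at -0.14 to 0.34. Differently numbered arrays were not compared, so these values cannot tell whether the numbers pair samples. With chromosome V shifted, the difference of *URA3* between the mutants reversed to -0.40. Over all alternatives, 2581 single-gene values kept their direction and their side of the threshold, 33 that passed under neither setting changed sign, 53 gained a call, 83 lost one and 1 reversed. Some of these alternatives changed only the thresholds on the same fit, which by itself adds or removes calls. Without them, 5 calls were gained and 34 lost in *rna14-1*, 7 and 14 in *rna15-1*, and 25 and 2 between the mutants. The cause of these remaining changes was not tested. No scaling moved the median of all genes by over 0.1, and the spread between 3 arrays limits what small changes can show.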

Other observations

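Some of the 34 genes also differed between the wild-type arrays. On wild-type replicates 3 to 5, *URA10* and *FUR4* were higher than on replicates 1 and 2 by 0.76 and 0.75 on the log2 scale, *MTD1* by 0.43, *ADE4* by 0.32 and *ADE12* by 0.31, while *ADE16* differed by -0.30. The median size of this difference was 0.139 for the 34 genes and 0.156 for all genes. The labels do not say whether these arrays were made at different times, and these sets were found from the correlations between arrays.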
